A study of Homo sapiens with 16 samples.

Results

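Interferon alpha (IFNα) was added to THP-1 cells that lack USP18, and histone H3 acetylated at lysine 27 (H3K27ac) was measured by ChIP-seq at regions of open chromatin. THP-1 is an established human monocytic leukemia line. The effect of IFNα in the USP18−/− (KO) cells was taken from 4 of the 8 H3K27ac libraries of the series, namely 2 libraries of untreated KO cells and 2 libraries of KO cells given 1000 U/ml of IFNα, harvested at 6 h, chosen by their genotype and treatment labels. The other 4 H3K27ac libraries came from WT cells that carry Cas9 only, 2 untreated and 2 with the same IFNα treatment, and are used here only to show where the KO response differed. The KO cells were made with CRISPR and sorted as single cells, so that they stand for a clone of the line, and a difference between the KO and the WT line cannot be told apart from a difference between clones. With 2 replicates in a group, the p-values measure only the spread between these libraries.

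USP18 is a protease that removes the ubiquitin-like protein ISG15 from its targets and, apart from that activity, binds the IFNAR2 chain of the type I IFN receptor and dampens signalling from it. Type I IFN activates the kinases JAK1 and TYK2, which phosphorylate STAT proteins, and these join IRF9 to form ISGF3, the complex that binds IFN-stimulated response elements. H3K27ac is written by the acetyltransferases p300 and CBP at active promoters and enhancers, and its level rises and falls with the activity of these elements.

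The deposited table held 151654 windows of 1000 bp around pooled ATAC-seq peaks on hg38, of which 123276 passed a filter on low counts and were tested. A region was called raised or lowered when its fitted change exceeded 2-fold and its adjusted p (edgeR quasi-likelihood test, Benjamini-Hochberg over all tested regions) was below 0.05. Levels are given as counts per 1000000 (CPM) with library sizes scaled by TMM, each region is named for the gene with the nearest transcription start site (TSS), and negative distances lie upstream of it. Fold changes and their standard errors (SE) are on the log2 scale unless a fold is stated.

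Of the regions with the largest rises, 4 are shown by the 200 bases at the centre of the window, on the plus strand of hg38, to show the letters behind the shares of matches given at the end. A pair of GAAA blocks is the core of the sequence bound by IRF proteins and ISGF3, and it lay in 3 of the 4; the region nearest to LINC02500 held an AP-1 and a C/EBP match and no IRF core. Capitals mark exact matches on either strand to the IRF core (GAAANNGAAA), an ETS-IRF composite (GGAANTGAAA), AP-1 (TGANTCA), PU.1 (GAGGAAGT) and C/EBP (TTGCNNAA). In NUP205 the ETS-IRF match and the IRF core overlap.
LINC02513, 82984 bp upstream of the TSS, chr4:38283830-38284029: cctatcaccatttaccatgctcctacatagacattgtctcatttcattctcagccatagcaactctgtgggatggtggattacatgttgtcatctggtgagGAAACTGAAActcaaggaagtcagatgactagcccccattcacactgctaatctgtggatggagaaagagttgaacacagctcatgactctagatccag
NME9, intron, chr3:138271253-138271452: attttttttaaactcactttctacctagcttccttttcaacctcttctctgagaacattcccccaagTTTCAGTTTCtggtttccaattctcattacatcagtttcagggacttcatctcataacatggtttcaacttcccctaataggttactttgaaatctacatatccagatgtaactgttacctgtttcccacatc
LINC02500, intergenic, chr4:181541475-181541674: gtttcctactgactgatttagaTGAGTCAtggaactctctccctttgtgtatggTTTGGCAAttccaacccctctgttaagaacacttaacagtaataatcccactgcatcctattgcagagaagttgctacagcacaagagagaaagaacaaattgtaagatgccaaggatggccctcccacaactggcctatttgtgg
NUP205, intron, chr7:135575331-135575530: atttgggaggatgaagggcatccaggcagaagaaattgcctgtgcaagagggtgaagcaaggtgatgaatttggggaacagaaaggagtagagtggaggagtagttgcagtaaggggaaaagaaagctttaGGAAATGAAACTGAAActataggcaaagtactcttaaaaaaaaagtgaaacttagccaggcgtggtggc

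The centres of 3 of the deepest falls are shown in the same way, and a few chosen sequences are no test of a contrast with the rises. Those nearest to AJAP1 and PAPSS1 held no match to these 5 motifs, and that nearest to MIRLET7I, in an intron, held a C/EBP match. Intron and intergenic are the labels of the deposited annotation. By the coding genes of GENCODE, the window labelled intergenic overlapped PAPSS1 itself, and that nearest to MIRLET7I overlapped PPM1H.
AJAP1, intron, chr1:4755958-4756157: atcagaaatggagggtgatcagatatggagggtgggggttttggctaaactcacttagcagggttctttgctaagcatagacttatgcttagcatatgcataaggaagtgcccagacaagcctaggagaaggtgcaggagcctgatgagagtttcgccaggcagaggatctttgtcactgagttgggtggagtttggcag
PAPSS1, intergenic, chr4:107592659-107592858: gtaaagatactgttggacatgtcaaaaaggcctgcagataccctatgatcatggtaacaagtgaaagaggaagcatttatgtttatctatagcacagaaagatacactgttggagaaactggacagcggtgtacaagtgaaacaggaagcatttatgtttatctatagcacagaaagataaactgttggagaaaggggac
MIRLET7I, intron, chr12:62706491-62706690: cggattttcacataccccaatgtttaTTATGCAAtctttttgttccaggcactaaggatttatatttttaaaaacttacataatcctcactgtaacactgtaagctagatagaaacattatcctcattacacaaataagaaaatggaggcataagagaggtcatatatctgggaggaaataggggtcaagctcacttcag

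Promoters of an antiviral and a chemokine gene that rose and of 3 granule genes that fell are given as the 200 bases upstream of the RefSeq TSS on GRCh38.p14, on the strand of the gene. IFI44L held the IRF core at 2 positions, while CXCL10 held none of the 5 motifs in these bases but an NF-κB match (GGGANTTCC, not in capitals). Bases farther upstream are not covered, so a missing match speaks only for these 200 bases. PRTN3 held a PU.1 and a C/EBP match, AZU1 held a C/EBP match, and CTSG held none of the 5. Of 35116 promoters of this length, 2.40% held the IRF core, 1.84% held PU.1, 6.91% held C/EBP and 1.42% held NF-κB. A match is a description of the letters and not evidence of binding.
IFI44L, chr1:78620248-78620447, plus strand: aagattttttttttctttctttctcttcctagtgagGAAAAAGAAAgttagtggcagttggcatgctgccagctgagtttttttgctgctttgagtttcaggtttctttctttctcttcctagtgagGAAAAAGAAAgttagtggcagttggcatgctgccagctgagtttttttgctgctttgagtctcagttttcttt
CXCL10, chr4:76023498-76023697, minus strand: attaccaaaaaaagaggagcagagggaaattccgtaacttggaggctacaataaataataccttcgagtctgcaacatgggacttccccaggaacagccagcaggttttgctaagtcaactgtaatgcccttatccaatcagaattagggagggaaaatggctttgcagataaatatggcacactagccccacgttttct
PRTN3, chr19:840799-840998, plus strand: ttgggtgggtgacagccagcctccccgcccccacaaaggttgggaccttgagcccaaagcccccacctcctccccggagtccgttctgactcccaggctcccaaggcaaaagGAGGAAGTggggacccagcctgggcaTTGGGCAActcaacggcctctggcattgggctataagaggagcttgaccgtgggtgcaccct
AZU1, chr19:827637-827836, plus strand: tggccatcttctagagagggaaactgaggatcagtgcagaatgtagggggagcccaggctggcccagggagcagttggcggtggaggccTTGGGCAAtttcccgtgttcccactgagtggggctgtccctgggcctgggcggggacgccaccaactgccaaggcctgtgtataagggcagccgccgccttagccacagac
CTSG, chr14:24576251-24576450, minus strand: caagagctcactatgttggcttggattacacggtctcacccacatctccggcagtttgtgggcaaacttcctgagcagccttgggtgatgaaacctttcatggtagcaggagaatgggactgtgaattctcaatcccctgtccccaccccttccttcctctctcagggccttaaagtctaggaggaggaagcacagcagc

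The 4 KO libraries held between 10841826.5 and 12935453.5 tags in the regions, which was 38.4 to 42.5% of their tags. Log2 CPM correlated across regions at 0.963 between the untreated KO libraries, at 0.965 between the IFNα-treated ones, and at 0.908 between an untreated and a treated library; regions are not independent replicates. Promoters of 10 of 12 monocytic marker genes had at least 5 CPM in untreated KO cells, including SPI1 (PU.1), at 98.7 and 99.4 CPM. None of 6 erythroid markers had a tested region and none of 6 epithelial markers reached this level, while 1 of 7 T cell markers (LCK) and 1 of 6 B cell markers (CD79A) did. H3K27ac does not read the USP18 lesion itself. The region at the USP18 TSS held 8.20 and 8.47 CPM in the untreated KO libraries and 49.2 and 41.7 CPM with IFNα (log2 change 2.45, SE 0.14, adjusted p = 4.8e-27).

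IFNα changed H3K27ac widely in the KO cells, in both directions. Raised regions numbered 8797, or 7.14% of those tested, and lowered regions 5278, or 4.28%. The median raised region went from 1.92 and 1.83 CPM in the untreated libraries to 7.63 and 7.42 CPM with IFNα, and the median lowered region from 5.93 and 5.87 to 2.40 and 2.35 CPM. Rises were larger than falls: their median log2 changes were 1.69 and −1.26, and 3153 rises but 214 falls exceeded 4-fold. Treated and untreated libraries did not overlap in 8789 of the raised and 5266 of the lowered regions, beside 68931 of all 123276 tested regions. In bulk cells, fewer cells carrying the mark and less of it in each cell cannot be told apart. The balance depended on scaling: with libraries scaled by the sum of their counts, 7454 regions were raised and 7898 lowered, so that raised regions made up 48.6% of the calls in place of 62.5%, and the median of all regions moved from −0.01 to −0.14.

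**Figure D1:**
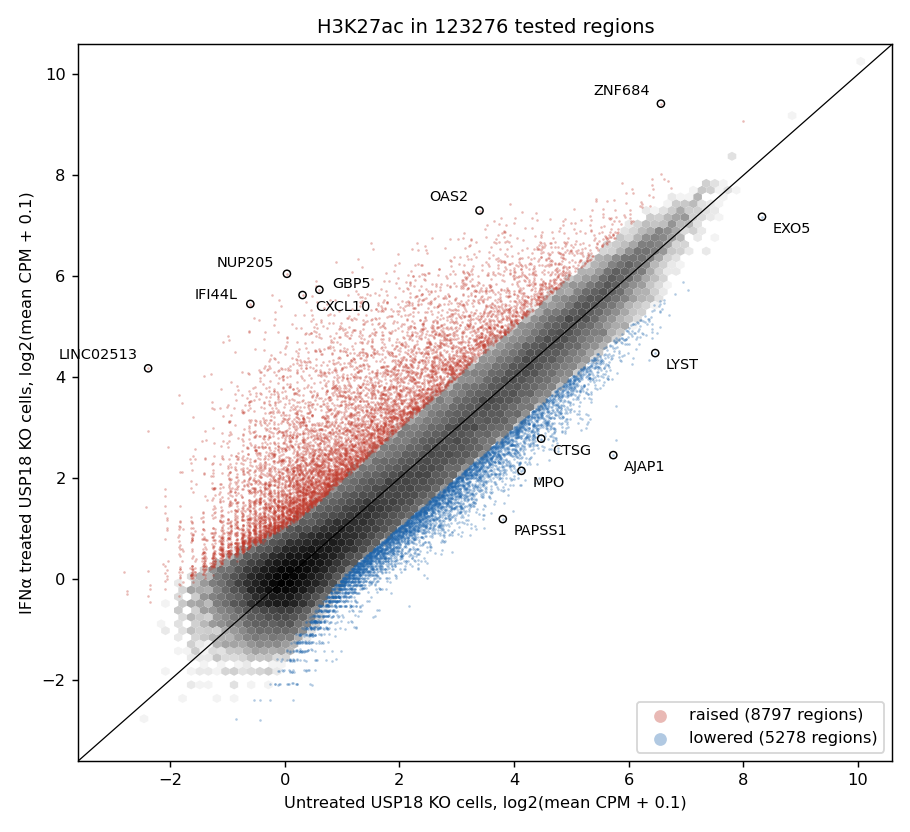
H3K27ac in untreated (x axis) and IFNα-treated (y axis) USP18−/− THP-1 cells, as log2 of mean CPM plus 0.1, for the 123276 tested regions. Each point is a region, and the 8797 raised regions (red) lie above the diagonal and the 5278 lowered regions (blue) below it, with the rises reaching farther from it than the falls.

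Raised and lowered regions differed in where they lay. Distal regions, over 3000 bp from a TSS, were raised in 7.90% and lowered in 4.91%, and proximal regions in 4.63% and 2.22%. Promoters as annotated were raised in 3.72% and lowered in 1.5%, introns in 8.19% and 4.38%, and intergenic regions in 7.46% and 5.27%. When the tested regions were divided into 4 equal classes by untreated KO signal, raised regions came from each class (7.62, 6.90, 9.08 and 4.95% from the lowest to the highest), whereas lowered regions lay mainly in the upper classes (0.114, 1.72, 7.93 and 7.37%). Since the untreated KO libraries enter the fold change, the classes were also drawn in untreated WT cells, which shared no library with it. There 0.827, 2.15, 5.82 and 8.33% were lowered. The low-count filter and the depth partly set these shares, so no conclusion is drawn from them. The lowest KO class had a median of 0.734 CPM. Regions there could pass the filter through other libraries, and a 2-fold fall there could hardly be called. Base composition moved with the calls: the share raised fell from 12% in the lowest of 4 classes of GC content to 2.63% in the highest, and the median GC content was 42.8% in raised, 46.3% in lowered and 47.6% in other regions. With an offset fitted to GC content, 8516 regions were raised and 5625 lowered.

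Of 14275 genes with a tested region within 1000 bp of the TSS, 633 had a raised and 291 a lowered region there, and 1 gene had both, although most genes have few windows there and neighbouring windows can share reads. Counting regions at any distance, 4808 of 22204 genes had a raised region, 3032 a lowered one and 798 both.

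The genes that block virus replication gained acetylation almost throughout. Of 133 tested regions within 10 kb of the TSS of antiviral effectors, 84 were raised and 1 was lowered, with a median log2 change of 2.11, beside 5.73% raised, 3.11% lowered and a median of 0.01 over all 46618 tested regions within that distance. Of their 40 genes with a tested region, 39 had a raised one. At the promoter of IFI44L, a paralog of the antiviral protein IFI44, the level was 0.349 and 0.770 CPM in untreated KO libraries and 46.5 and 40.7 CPM with IFNα (log2 change 6.28, SE 0.24, adjusted p = 2.8e-39). At OAS2, an oligoadenylate synthetase that is activated by double-stranded RNA, 10.4 and 10.5 CPM became 170 and 145 CPM (3.92, SE 0.11). At ADAR, which edits double-stranded RNA, 48.2 and 37.8 became 190 and 182 CPM (2.11, SE 0.09). These regions were chosen among those where treated and untreated libraries did not overlap. The exception among the 133 was a region 7693 bp downstream of the TSS of IFI35, which held 11.4 and 9.53 CPM before and 4.88 and 3.10 CPM after IFNα (−1.39, SE 0.22, adjusted p = 1.3e-07).

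The machinery that conjugates ISG15 and the PARP enzymes moved with the antiviral genes, with 21 of 30 regions raised, none lowered and a median of 2.07. UBE2L6, the E2 enzyme for ISG15, had an intronic region at 3.32 and 4.04 CPM that reached 82.0 and 66.0 CPM (4.33, SE 0.16). At the TSS of ISG15 itself, 8.03 and 9.34 CPM became 75.6 and 73.0 CPM (3.10). Guanylate-binding proteins, GTPases that attack vacuoles holding pathogens, had 14 of 16 regions raised, at each of the 7 genes, with a median of 2.21. A region 1804 bp upstream of GBP5 went from 1.40 and 1.44 to 52.7 and 53.3 CPM (5.21, SE 0.19, adjusted p = 3.2e-40).

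Within the IFN pathway, several transcription factor genes had raised regions while most receptor and kinase genes had none. Of 55 regions at receptor and JAK-STAT genes 7 were raised and 1 was lowered. IRF9, the DNA-binding part of ISGF3, went from 25.4 and 20.9 to 106 and 91.3 CPM at its TSS (2.08, SE 0.11). STAT2, STAT3, STAT5A and JAK1 also had a raised region. IFNAR1, IFNAR2, IFNGR1, JAK2, TYK2, STAT4, STAT5B and STAT6 had none, with log2 changes of −0.21 at the IFNAR1 and 0.02 at the IFNAR2 TSS. The lowered region lay 1695 bp upstream of IFNGR2, a chain of the IFNγ receptor, and held 8.90 and 11.0 CPM before and 3.73 and 5.73 CPM after IFNα (−1.07, SE 0.21), but the change fell under 2-fold without untreated KO replicate 2 (−0.92) or IFNα-treated KO replicate 1 (−0.83). The median of this list was 0.06 and became −0.07 when libraries were scaled by the sum of counts.

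Among feedback inhibitors, 9 of 52 regions rose and none fell. SOCS1, which binds and inhibits JAK kinases, went from 3.23 and 6.06 to 16.2 and 25.1 CPM (2.16, SE 0.20), and PTPN1, PTPN2 and USP18 were the other genes with a raised region. Of 29 regions at IFN regulatory factors 8 rose, with IRF1, IRF2 and IRF7 among the genes. An element 6163 bp upstream of IRF1 went from 20.7 and 23.2 to 84.9 and 82.3 CPM (1.93, SE 0.11), and the TSS of IRF7, the main driver of IFNα gene transcription, from 40.4 in both libraries to 134 and 143 CPM (1.78, SE 0.09).

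Sensors of foreign nucleic acid and the inflammasome rose in part. Of 55 regions at RNA and DNA sensor genes 13 were raised and none lowered. AIM2, which senses cytosolic DNA, had a promoter at 0.611 and 0.770 CPM that reached 18.5 CPM in both treated libraries (4.73, SE 0.27, adjusted p = 4.1e-27). Raised regions also lay at DDX58 (RIG-I), IFIH1 (MDA5), DHX58, IFI16, MNDA, NOD1 and TLR7. Inflammasome and pyroptosis genes had 12 of 39 regions raised and none lowered. At CASP1, the protease that cleaves pro-IL-1β, an intronic region went from 2.09 and 2.12 to 10.8 and 8.64 CPM (2.20, SE 0.25). At GSDMD, the pore-forming substrate of the inflammatory caspases, the TSS rose by a log2 change of 1.21. The TSS of NLRP3 was not called (−0.44), although 2 other regions near it were raised, and no region near GSDME, PYCARD, NLRP1, NLRC4 or MEFV was raised. Toll-like receptor and adaptor genes had 4 of 46 regions raised and none lowered, at the adaptors MYD88 and TICAM1 and the kinase IRAK2, with MYD88 going from 7.85 and 8.28 to 39.9 and 35.8 CPM (2.23, SE 0.15).

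Antigen presentation split by class. Of 40 regions at MHC class I genes 22 were raised, at 12 of 15 genes, and none was lowered (median 1.08). Several of the largest gains in absolute signal lay here: the TSS of PSMB8, an immunoproteasome subunit, went from 60.8 and 56.7 to 240 and 217 CPM (1.96, SE 0.09), and TAP1, a chain of the peptide transporter, from 68.3 and 64.6 to 220 and 206 CPM (1.68, SE 0.08). HLA-E, the ligand of the NKG2A receptor, went from 17.1 and 19.5 to 75.7 and 69.8 CPM (1.99, SE 0.12). Of 36 regions at MHC class II genes 2 were raised and 2 lowered, with a median of −0.01. An element 9449 bp upstream of HLA-DOA rose from 20.8 and 19.7 to 95.5 and 89.6 CPM (2.19). A region in an exon of HLA-DMB fell from 8.38 and 9.53 to 2.66 and 3.38 CPM (−1.56, SE 0.23). The promoter of CIITA, the master regulator of MHC class II, held 4.89 and 6.35 CPM before and 2.84 and 2.53 CPM after IFNα (−1.05, SE 0.26), and its change fell just under 2-fold without untreated KO replicate 2 (−0.86), without treated KO replicate 2 or with loess offsets.

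Chemokine genes rose as clusters. Of 49 chemokine regions 21 were raised and none lowered, with a median of 0.78. CXCL9, CXCL10 and CXCL11, ligands of the T cell receptor CXCR3, lie side by side on chromosome 4. An unbroken run of 13 raised regions lay there between positions 75990505 and 76037555, including regions nearest to SDAD1 and ART3. A run ends where the calls end, so it gives no share of the locus. Beyond it, regions at −8909 and −15780 bp from the CXCL11 TSS were not called. An element 4926 bp upstream of CXCL10 went from 1.22 and 1.06 to 53.0 and 45.6 CPM (5.42, SE 0.21, adjusted p = 4.4e-39), and the CXCL11 TSS from 1.66 and 0.674 to 12.6 and 14.9 CPM (3.52). The 3 regions nearest to CXCL9 rose less, by 1.17 to 1.47. Among CC chemokines, which draw monocytes, an element upstream of CCL8 went from 1.05 and 1.06 to 27.9 and 23.8 CPM (4.60, SE 0.24), and regions at CCL2, CCL3, CCL3L1, CCL4L1 and CCL5 were raised.

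Of 64 cytokine regions 19 were raised and 2 lowered. IL27 went from 2.09 and 2.60 to 18.1 and 19.1 CPM at its TSS (2.99, SE 0.21). IL1RN, which encodes the antagonist of the IL-1 receptor, had an element that went from 7.42 and 11.5 to 59.8 and 63.6 CPM (2.71, SE 0.14), whereas a region 2527 bp upstream of IL1A, an agonist of the same receptor, was lowered. At IL6 an element 3652 bp upstream went from 16.1 and 14.1 to 65.0 and 68.3 CPM (2.13). TNFSF10 (TRAIL), a death ligand, had a TSS that rose from 22 and 21 to 87.0 and 75.7 CPM (1.92, SE 0.11). An unbroken run of 12 raised regions, with ends set by the calls, spanned 51.4 kb across this TSS. In WT cells the TNFSF10 TSS held a mean of 36.9 CPM before and 33.6 CPM after IFNα, so that the effect was larger in KO cells by 2.05 (adjusted p = 9.6e-19). The TSS of TNF was not called, at 48.1 and 46.5 CPM before and 87.7 and 87.4 CPM after IFNα (0.89).

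Genes of NF-κB signalling had 7 of 65 regions raised and 1 lowered. The promoter of NFKBIZ, an atypical IκB protein, went from 6.89 and 5.87 to 23.3 and 24.3 CPM (1.89, SE 0.17), and CD40, RELB and TRAF1 had raised regions. The lowered region lay 8819 bp upstream of NFKB2, which encodes p100, and held 7.24 and 8.37 CPM before and 3.73 and 3.0 CPM after IFNα (−1.20, SE 0.24). Immediate early and AP-1 genes had 13 of 149 regions raised and 3 lowered. BATF2 had regions of both kinds: one 23 bp from an annotated TSS went from 7.51 and 5.97 to 49.6 and 45.6 CPM (2.81, SE 0.15), while 2 overlapping windows near another TSS of the gene fell (−1.45 and −1.16, the latter −0.96 without treated KO replicate 2).

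Death and checkpoint genes rose at selected members. Of 92 regions at apoptosis and necroptosis genes 15 were raised and none lowered. BAK1, which permeabilizes mitochondria, went from 17.8 and 24.7 to 73.1 and 84.5 CPM in an intronic region (1.89, SE 0.12), and CFLAR, which restrains caspase-8, from 6.72 and 7.12 to 32.8 and 29.7 CPM (2.17, SE 0.16). FAS, CASP8, MLKL, MCL1, TNFRSF10D and XIAP also had a raised region. Checkpoint and costimulatory genes had 17 of 63 regions raised and 2 lowered. An element 4407 bp upstream of CD274 (PD-L1) went from 2.53 and 1.92 to 25.7 and 25.3 CPM (3.50, SE 0.21, adjusted p = 6.8e-27), and one upstream of HAVCR2 (TIM-3) from 0.698 and 0.866 to 8.34 and 8.83 CPM (3.44, SE 0.32). SIGLEC1 (CD169), a sialic acid receptor of macrophages, had 3 regions raised by 1.41 to 2.35 upstream of its TSS and a farther one, at 9290 bp, decreased by 2.49 on the log2 scale. In LGALS9, the galectin that binds TIM-3, 2 regions at the TSS (both 2.31) rose beside a lowered intronic one that held 13.5 and 11.9 CPM before and 5.50 and 6.29 CPM after IFNα (−1.11, SE 0.19).

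**Figure D2:**
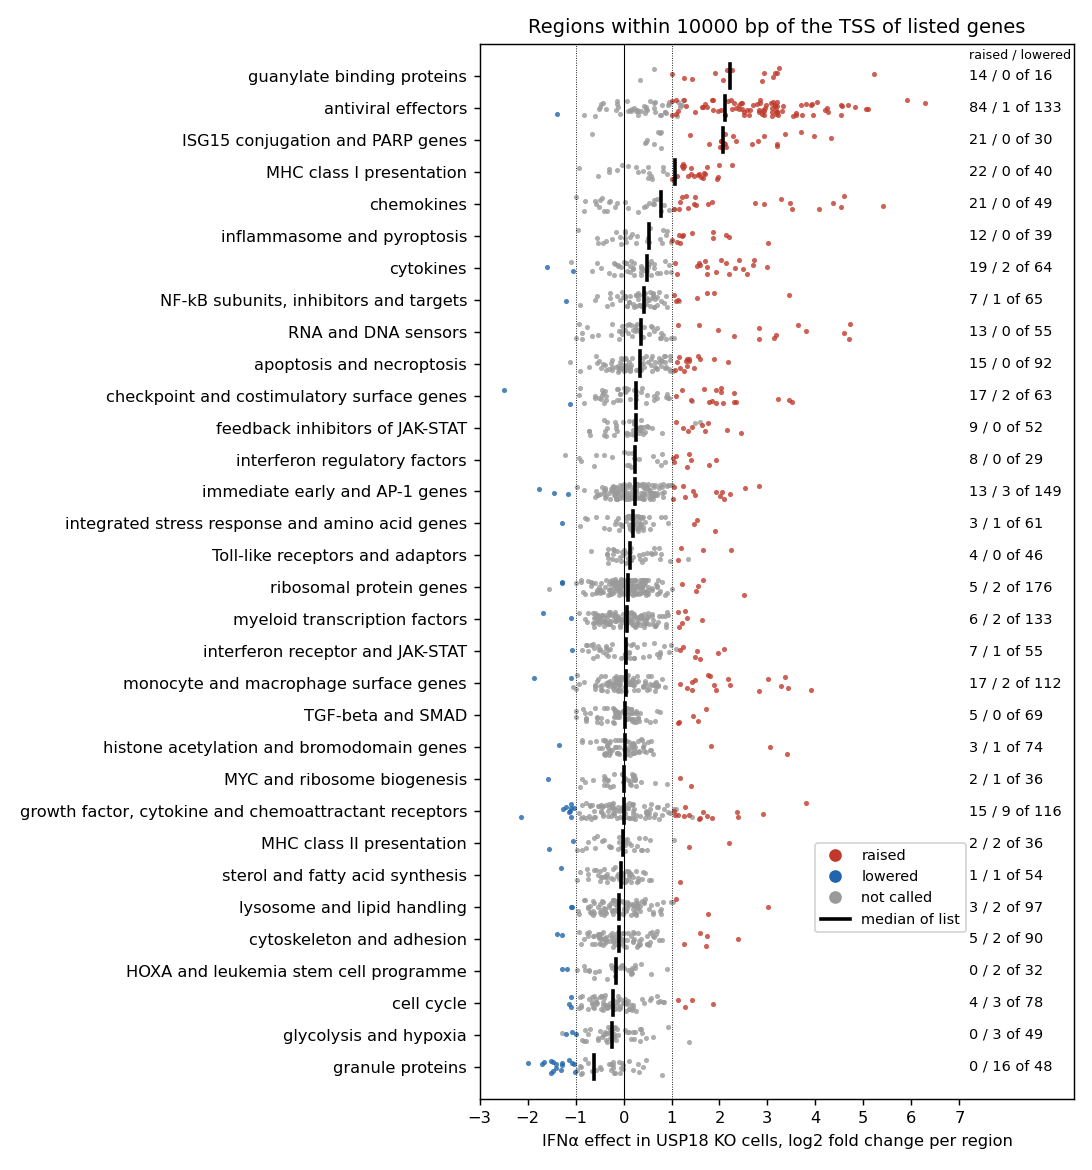
Log2 change of H3K27ac after IFNα in USP18−/− cells (x axis) for every tested region within 10 kb of the TSS of a listed gene, one row per function list, with the median as a vertical mark and the numbers raised and lowered of the total at the right. Guanylate-binding proteins and antiviral effectors, with medians of 2.21 and 2.11, sit farthest to the right, and granule proteins, with a median of −0.61, farthest to the left.

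Granule protein genes lost acetylation. These genes encode the proteases and antimicrobial proteins that neutrophil and monocyte precursors pack into azurophil granules, and they are highly expressed in immature myeloid cells. Of 48 regions near 14 of them, 16 were lowered, at 8 genes, and none was raised, with a median log2 change of −0.61, beside 3.11% lowered over all regions within 10 kb of a TSS. In WT cells the median of the same regions was −0.08. At MPO, which encodes myeloperoxidase, a region 1012 bp upstream held 16.4 and 18.4 CPM in untreated KO libraries and 4.79 and 3.85 CPM with IFNα (−2.0, SE 0.17, adjusted p = 7.7e-18). The same region held a mean of 52.8 CPM in untreated and 53.3 CPM in IFNα-treated WT cells, and the effects in the 2 lines differed by −2.01 (adjusted p = 2.8e-13). Another MPO region, 3925 bp upstream, went from 63.0 and 65.7 to 29.9 and 33.1 CPM (−1.03).

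The serine protease genes fell with it. At the cluster on chromosome 19, the PRTN3 promoter (proteinase 3) went from 60.3 and 59.8 to 23 and 20.4 CPM (−1.47, SE 0.10, adjusted p = 9.1e-22), the AZU1 promoter (azurocidin) from 79.9 and 72.4 to 35 and 34.3 CPM (−1.14, SE 0.10), and a region 1598 bp upstream of ELANE (neutrophil elastase) from 62.0 and 69.0 to 33.9 and 31.3 CPM (−1.01, SE 0.10). At the promoter of PLPPR3, which adjoins AZU1, 96.1 and 113 CPM became 35.2 and 39.6 CPM (−1.48). The TSS of CFD (complement factor D), at the far end of the cluster, was not called (−0.20). CTSG (cathepsin G), on chromosome 14, went from 23 and 21.2 to 6.04 and 7.51 CPM at a region 678 bp upstream (−1.71, SE 0.15). LYZ (lysozyme) and MS4A3 fell as well, by −1.52 at a region 459 bp inside LYZ and by −1.31 at the MS4A3 promoter. At SRGN, the proteoglycan core of the granule, a region 7058 bp upstream fell from 9.95 and 9.82 to 2.93 and 4.04 CPM (−1.51) while the TSS was not called, at 47.5 and 45.7 CPM before and 55.9 and 61.1 CPM after IFNα (0.33). RNASE2, RNASE3, PLAC8, CST7 and CFP had no lowered region within 10 kb.

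**Figure D3:**
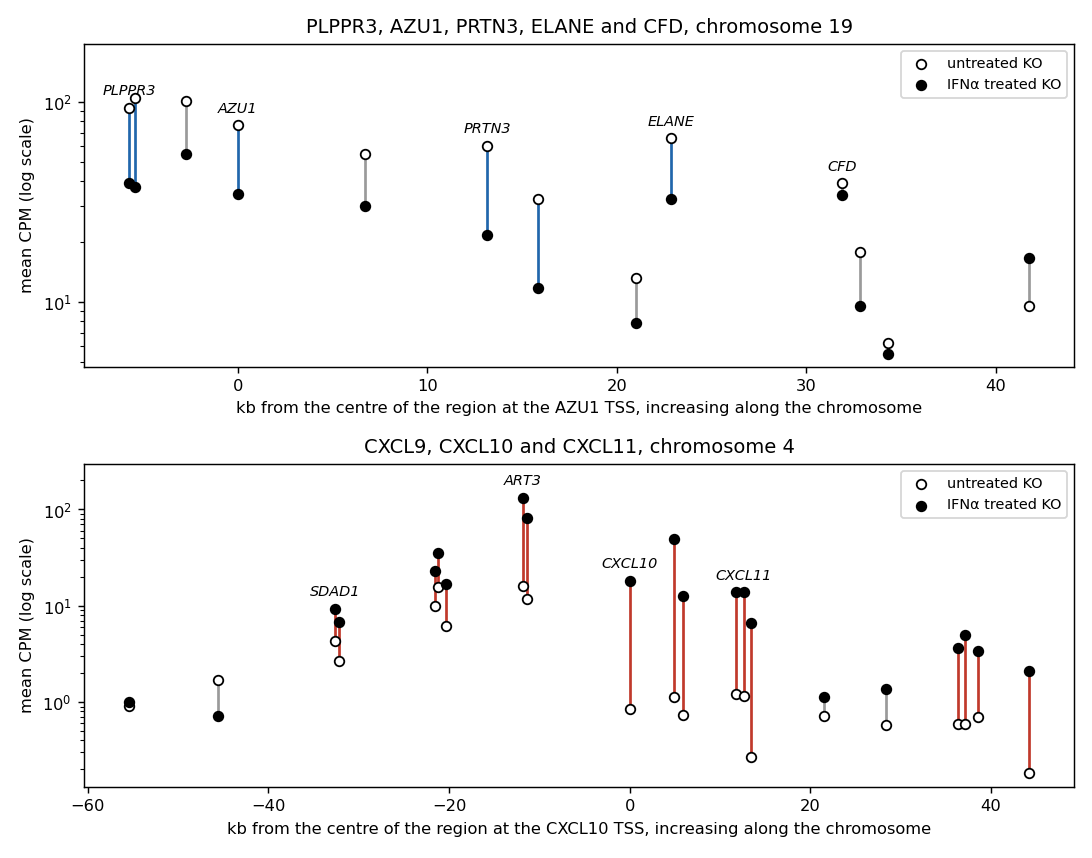
Mean H3K27ac (y axis, CPM on a log scale) in untreated (open circles) and IFNα-treated (filled circles) USP18−/− cells at tested regions across the granule protease cluster (PLPPR3, AZU1, PRTN3, ELANE, CFD) and across CXCL9, CXCL10 and CXCL11, by distance in kb from the AZU1 or CXCL10 TSS region (x axis); red lines join the means of raised, blue those of lowered and grey those of other regions. Treated means lie below untreated ones at the PLPPR3, AZU1 and PRTN3 promoters and upstream of ELANE. They lie above them at the 13 regions of the raised run on chromosome 4, some of which are nearest to SDAD1 and ART3.

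Of 133 tested regions at transcription factors that guide myeloid cells, 6 were raised and 2 lowered, the latter at CEBPE and NFE2. Both shares were below the 5.73% raised and 3.11% lowered over all tested regions within 10 kb of a TSS. The list as a whole thus showed no excess of calls, and the values below speak for single regions. CEBPE, the C/EBP factor of granulocyte maturation, went from 23 and 25.2 to 8.17 and 6.85 CPM at a region 614 bp upstream (−1.68, SE 0.15, adjusted p = 4.9e-17), where WT cells held means of 36.8 and 36.7 CPM and the effects differed by −1.67 (adjusted p = 2.1e-11). NFE2, an erythroid and megakaryocytic factor, fell from 18.8 and 17.0 to 8.79 and 8.07 CPM (−1.09, SE 0.15). TAL1, a factor of early blood development, had a raised region. SPI1 reached 131 and 128 CPM (0.39), CEBPA changed by −0.47 and MYC by −0.90, and none of these promoters was called. At HOXA genes and other leukemia stem cell genes 2 of 32 regions were lowered and none raised. These were HOXA5 (−1.27, SE 0.29; −0.97 without treated KO replicate 2) and HOXA7 (−1.18, SE 0.23; −0.95 without untreated KO replicate 2 and −0.96 without treated KO replicate 1), so that both calls hung on single libraries.

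Receptor genes moved both ways, with 15 of 116 regions raised and 9 lowered. Raised regions lay at receptors for chemokines, formyl peptides and CSF1. An element 8301 bp upstream of FPR3 went from 2.36 and 2.60 to 36.7 and 33.1 CPM (3.81, SE 0.20) and one 5074 bp upstream of CCR1 from 5.76 and 5.29 to 43.8 and 38.9 CPM (2.90, SE 0.16), and CSF1R had a region raised by 2.38. Lowered regions lay at CXCR4, CXCR2, FLT3, INSR and IL1R1. At CXCR4, the receptor that holds blood cells in the marrow, the region at the TSS went from 16.7 and 19.5 to 7.46 and 9.58 CPM (−1.09, SE 0.16), and an element 18300 bp upstream from 35.7 and 36.6 to 8.61 and 9.11 CPM (−2.03, SE 0.13, adjusted p = 1.2e-23). At FLT3, a receptor kinase of leukemic blasts, an intronic region fell from 15.2 and 14.0 to 5.06 and 7.04 CPM (−1.27, SE 0.18), while its TSS was not called (−0.45). At INSR, the insulin receptor, 10.9 and 9.72 CPM became 2.13 and 2.53 CPM (−2.14, SE 0.24).

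Among surface genes of monocytes and macrophages 17 of 112 regions rose and 2 fell. An element upstream of LILRB1, an inhibitory receptor for MHC class I, went from 1.83 in both libraries to 28.9 and 26.4 CPM (3.91, SE 0.21), and AXL, CD163, CLEC12A, FCGR1A, FCGR2A, LILRB2 and MSR1 had raised regions. CLEC12A, a lectin of myeloid blasts, had its promoter lowered from 4.45 and 4.62 to 1.42 and 1.03 CPM (−1.87, SE 0.31) beside a raised region elsewhere. FCGR1A also had a lowered region (−1.10, and −0.96 without untreated KO replicate 1).

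**Figure D4:**
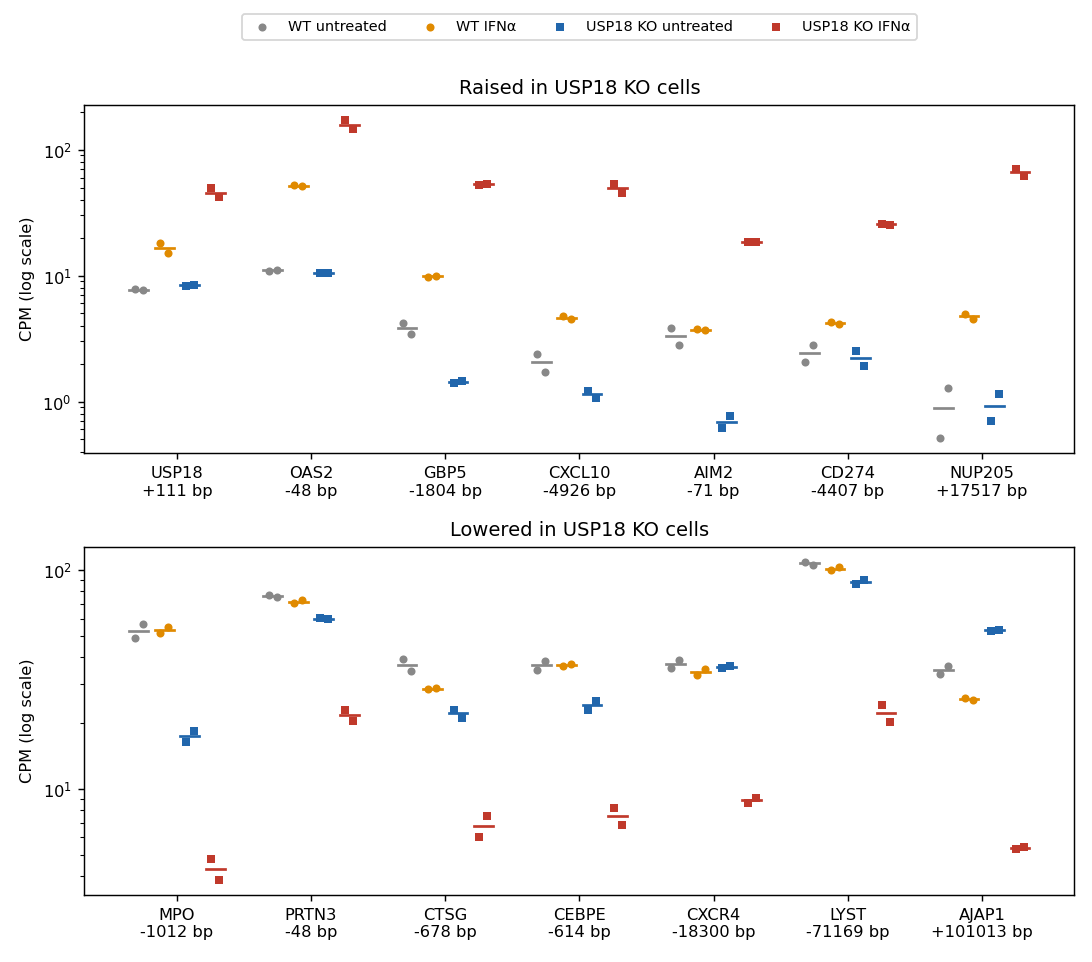
H3K27ac (y axis, CPM on a log scale) in each of the 8 libraries, by group, at 7 raised regions (USP18, OAS2, GBP5, CXCL10, AIM2, CD274, NUP205) and 7 lowered regions (MPO, PRTN3, CTSG, CEBPE, CXCR4, LYST, AJAP1); points are libraries and bars are group means (n = 2). In KO cells the treated libraries lie outside the range of the untreated ones at each region, which was a condition for choosing most of them. In WT cells the regions that rise include USP18, OAS2 and CXCL10 (means of 2.05 and 4.63 CPM), and the AJAP1 region falls by less than 2-fold (34.9 and 25.7 CPM). The WT means are 52.8 and 53.3 CPM at MPO and 36.8 and 36.7 CPM at CEBPE.

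Lists for growth and metabolism are given beside the 5.73% raised and 3.11% lowered over all regions within 10 kb of a TSS. Cell cycle genes had 4 of 78 regions raised and 3 lowered, with a median of −0.23, beside 0.00 in WT cells. These shares, 5.13% and 3.85%, were near those over all regions. E2F1, a driver of S phase entry, fell from 16.3 and 18.9 to 7.46 and 8.54 CPM at its promoter (−1.14, SE 0.17), CCNE2 (cyclin E2) fell by 1.10 on the log2 scale, and RB1, which restrains E2F proteins, rose by 1.29 (0.98 without untreated KO replicate 1). CCND3 (cyclin D3) and MCM2 also had a raised region, and MCM3 had a lowered one. Glycolysis genes had 3 of 49 regions lowered and none raised (median −0.25): HK1 fell from 23 and 19.2 to 9.94 and 8.45 CPM (−1.20, SE 0.15), a region 936 bp upstream of GAPDH from 29.8 and 31.2 to 15.0 and 15.5 CPM (−1.0, just past the threshold), and ALDOA by 1.07 on the log2 scale (−0.92 without treated KO replicate 2). Lysosome and lipid genes had 3 of 97 regions raised (LIPA, CTSL, FABP5) and 2 lowered, at the nuclear receptors PPARG (−1.11) and NR1H3 (−1.08). The PPARG call was lost without treated KO replicate 2 (−0.78), and the NR1H3 call without that library (−0.99) or without untreated KO replicate 2 (−0.85). Sterol and fatty acid genes had 1 raised and 1 lowered region of 54, the integrated stress response 3 and 1 of 61, MYC and ribosome biogenesis genes 2 and 1 of 36, TGF-β and SMAD genes 5 and 0 of 69, and cytoskeleton and adhesion genes 5 and 2 of 90. Genes of ribosomal proteins, taken by symbol, had 5 raised and 2 lowered regions of 176 and a median of 0.09, which became negative with libraries scaled by the sum of counts. Among writers and erasers of histone acetylation, 3 of 74 regions were raised and 1 lowered. HDAC9, a class IIa deacetylase, rose at its promoter from 1.83 and 1.35 to 17.8 and 16.3 CPM (3.40, SE 0.24), and a region 9002 bp upstream of HDAC2 fell by 1.36 on the log2 scale, a call lost without untreated KO replicate 1 (adjusted p = 0.053).

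The largest rises by fold lay mostly outside these lists and far from promoters. The region nearest to LINC02513 held 1 count in each untreated KO library and 395 counts in the treated ones together, a ratio of 197 (95% counting interval 54.1 to 1631), and went from 0.0873 and 0.0962 to 20.0 and 16 CPM (7.44, SE 0.41). In an intron of NME9, 0.262 and 0.866 CPM became 42.9 and 41.5 CPM (6.23, SE 0.25), and in an intron of NUP205, a nucleoporin gene, 0.698 and 1.15 CPM became 70.1 and 62.0 CPM (6.15, SE 0.21, adjusted p = 9.1e-43). A region 9898 bp upstream of NOS2, the inducible nitric oxide synthase, went from 0.611 and 0.192 to 30.4 and 25.7 CPM (6.05, SE 0.29). WTIP, LOC105370829, LINC01482, LINC02500 and PODXL completed the 10 largest, between 5.84 and 6.19. LINC02500 had 2 counts in the untreated and 165 in the treated libraries (ratio 82.2, 95% counting interval 22.4 to 685), and PODXL 4 and 245 (ratio 61.1, interval 23.5 to 226).

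By absolute signal the largest gain lay in an intron of ZNF684 on chromosome 1, a zinc finger gene, where 93.2 and 95.5 CPM became 692 and 676 CPM (2.86, SE 0.07, adjusted p = 4.5e-52). WT cells already held a mean of 248 CPM there before IFNα and 303 CPM after it. The largest absolute loss lay on the same chromosome between the positions of this region and SMAP2: 11013 bp from the TSS of EXO5, 343 and 298 CPM became 156 and 133 CPM (−1.15, SE 0.07), while in an intron of SMAP2 267 and 244 CPM became 545 and 534 CPM (1.08, SE 0.07). The SMAP2 rise stayed below 2-fold with scaling by the sum of counts (0.95) and with loess offsets (0.87). The positions were 40380862 for the start of the SMAP2 window, 40519232 for EXO5 and 40539032 for ZNF684, so that the loss lay between the SMAP2 and ZNF684 gains.

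The deepest fall among regions of at least 5 CPM lay in an intron of AJAP1, which encodes a junction-associated transmembrane protein. There 52.9 and 53.1 CPM became 5.33 and 5.45 CPM (−3.30, SE 0.14, adjusted p = 7.5e-36), whereas WT cells held means of 34.9 and 25.7 CPM, and the effects differed by −2.85 (adjusted p = 8.4e-22). AJAP1 also had the most lowered regions of any gene, 16 of 24 tested. At 10 of its regions the log2 change was more negative in KO than in WT cells by the same thresholds. Near its TSS an unbroken run of 8 regions over 14.9 kb was lowered. Next in depth were regions assigned to PAPSS1, from 14.1 and 13.7 to 2.57 and 1.78 CPM (−2.66, SE 0.21), to MIRLET7I, from 5.15 and 5.87 to 0.976 and 0.845 CPM (−2.58, SE 0.31), and to MUT, from 11.3 and 10.7 to 1.86 and 1.97 CPM (−2.51, SE 0.23). These regions lay 101013 to 237660 bp from the TSS that names them, and these data do not show which gene, if any, they act on.

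Other strong elements lost much of their signal. Upstream of LYST, a regulator of lysosome-related granules, 86.6 and 89.6 CPM became 24.1 and 20.2 CPM (−1.99, SE 0.10), and WT cells held means of 107 and 102 CPM. Upstream of GSE1, 89.8 and 95.7 became 31.2 and 32.6 CPM (−1.54), near LINC01264 89.7 and 89.5 became 28.8 and 29.4 CPM (−1.62), and in an intron nearest to FBXL20 85.0 and 83.8 became 30.2 and 29.1 CPM (−1.51). The promoter of C10orf91 went from 128 and 135 to 53.4 and 51.8 CPM (−1.32), and a region upstream of P2RY2, a nucleotide receptor, from 128 and 117 to 58.7 and 59.1 CPM (−1.06). Treated and untreated KO libraries that did not overlap were a condition for choosing these regions, and none of them was called in WT cells.

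Some changes of one direction came in rows. Raised regions fell into 6041 runs of neighbouring tested regions, of which 4269 were single regions, and 559 runs of at least 3 held 2102 regions (23.9%), although overlapping windows share reads. The longest runs, of 13 regions each, covered the CXCL9 to CXCL11 cluster and introns of RIN2, a RAB5 regulator, where the median region went from 3.05 to 8.12 CPM. A run of 11 in CHSY1, a chondroitin synthase gene, went from a median of 15.9 to 61.0 CPM, and a run of 10 nearest to LOC100506178 lay within STEAP1B, with the TSS of IL6 152084 bp away. Lowered regions formed 3643 runs, of which 2536 were single regions and 358 of at least 3 held 1244 regions (23.6%). Besides AJAP1, runs of lowered regions lay near MIR3667 (8 regions), RELL1 and PGM2 (7), LINC01264 (6; median 37.4 to 8.70 CPM), in CDH1 (6), the gene of E-cadherin, near LINC02580 (6; 28.1 to 9.71 CPM), and across ABCA2 and FUT7 (6; 29.1 to 11.6 CPM).

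Counted by nearest gene at any distance, RIN2 was among the genes with the most raised regions, 16 of 29. Its strongest element, in an intron, went from 6.02 and 4.62 to 38.4 and 34.9 CPM (2.78, SE 0.16, adjusted p = 1.0e-26), against WT means of 3.20 and 5.39 CPM. TBC1D1 (14 of 39), CHSY1 (13 of 31), PTCHD4 (13 of 21), LINC02068 (12 of 16), RGL1 (12 of 14), PRR16 (12 of 23) and SAMD4A (12 of 22) followed. After AJAP1, the most lowered were PREX1, a RAC exchange factor of myeloid cells (15 of 49), COL23A1 (11 of 27), LINC00499 (11 of 27), LINC00656 (11 of 26) and MIR3667 (11 of 30). In PREX1 an intronic region went from 14.1 and 14.7 to 3.55 and 4.22 CPM (−1.89, SE 0.19).

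Some loci gained and lost acetylation at once. PDE4B, a cAMP phosphodiesterase gene, had 7 raised and 11 lowered regions of 50, and 1 of its promoters went from 0.960 and 0.674 to 7.63 and 6.01 CPM (3.04, SE 0.34). At least 4 regions of each kind lay nearest to 14 genes in all. Among them were JARID2 (6 raised and 5 lowered of 84), ANXA4 (7 and 5 of 38), KLF4 (6 and 4 of 66), RBPJ (4 and 6 of 28) and PTGER4 (5 and 4 of 50). Over all tested regions 7.14% were raised and 4.28% lowered, so a gene with many tested regions reaches these counts more readily.

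Sequence differed between the sets. Among distal regions the IRF core lay in the central 200 bp of 30.2% of 7460 raised, 1.85% of 4638 lowered and 4.61% of 82331 other regions, and its share climbed with the log2 change, from 1.46% in the lowest bin to 51.1% in the highest. Since IRF sites are rich in A and T, the shares were also taken within 3 classes of GC content of equal size, where they were 37.4, 26.2 and 15.2% of raised and 2.80, 2.05 and 0.761% of lowered regions from low to high GC. The ETS-IRF composite lay in 6.72% of raised, 3.34% of lowered and 3.66% of other regions. AP-1 matches were fewer in lowered regions, at 8.88%, than in raised (18.8%) or other regions (15.5%). Lowered regions more often held RUNX (TGTGGTT), in 11.2% against 7.33% of raised and 8.13% of other regions, PU.1, in 9.42% against 5.74% and 7.55%, and C/EBP, in 23.1% against 19.2% and 19.1%. NF-κB matches (GGGANTTCC) were near 1% in each set: 0.992% of raised, 1.32% of lowered and 1.01% of other regions. This exact string misses NF-κB sites of other lengths or letters, so the shares cannot show whether such sites are enriched. The study searched with HOMER's known motifs, where it singled out NF-κB, and reported higher p65 occupancy at PLK2 and CCL4L2 in IFN-treated KO than WT cells. It also reported a rise of nuclear p65 in IFN-treated KO cells alone, and weaker CCL4L2 promoter activity once the NF-κB motif was removed. An NF-κB inhibitor lowered the induction of PLK2 and CCL4L2, and its pathway and ChIP-Atlas searches pointed to NF-κB at atypical ISGs. Both strands were searched, and these shares are descriptions without a test.

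**Figure D5:**
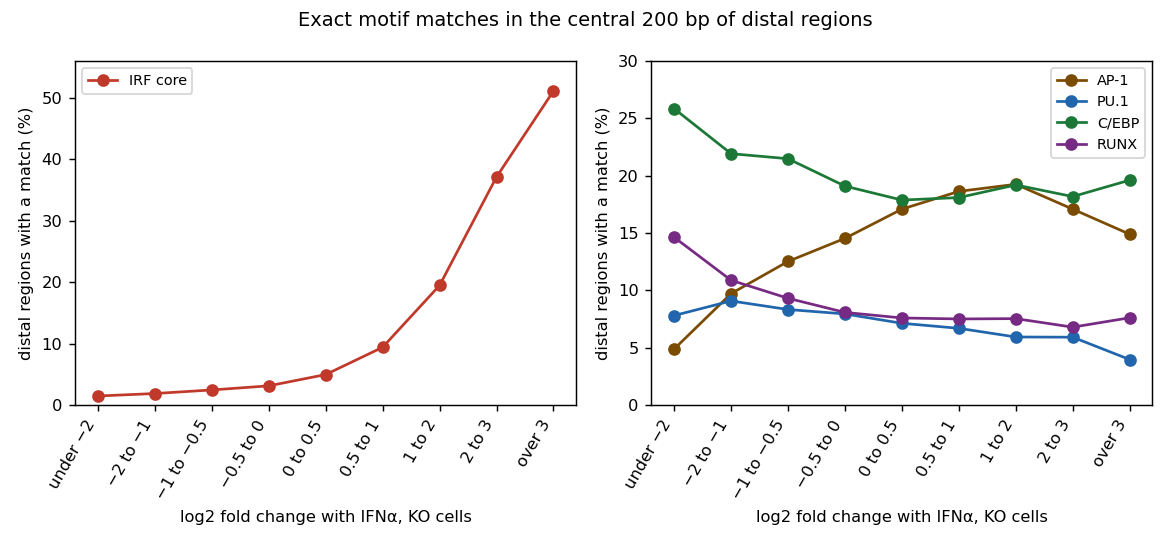
Share of distal regions (y axis, percent) whose central 200 bp hold a match to each motif, by bin of the log2 change after IFNα in USP18−/− cells (x axis). The IRF core climbs from 1.46% in the most lowered bin to 51.1% in the most raised, while RUNX is highest in the most lowered bin.

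In WT cells the same treatment raised 424 regions (0.344%) and lowered 47 (0.0381%). The regions raised in KO cells had a median of 2.21 CPM in untreated and 2.78 CPM in treated WT cells, a median log2 change of 0.28, and the lowered regions 7.43 and 6.37 CPM, a median of −0.18. The KO and WT effects share no library, and their difference was tested in the same fit. Larger and smaller go by the signed log2 change, so that a deeper fall in KO cells counts as a smaller effect. The signed effect was larger in KO cells by more than 2-fold at 5743 regions (4.66%) and smaller at 3093 (2.51%). Of the regions raised in KO cells, 5215 (59.3%) passed the test of a larger effect. Of the lowered ones 2485 (47.1%) passed that of a smaller effect, meaning a change more negative in KO than in WT cells. These regions were chosen by their change in KO cells, which is itself part of the difference. The direction of the difference was thus largely set by the choice, and these shares are not independent support for it. The same holds for differences given at regions named for their change in KO cells. Of the lowered regions 11 were lowered and 1 was raised in WT cells. By function list, antiviral effectors had 52 of 133 regions raised in WT cells and 62 with a larger effect in KO cells, guanylate-binding proteins 1 and 10 of 16, chemokines 1 and 16 of 49, MHC class I genes 1 and 11 of 40, and inflammasome genes 0 and 9 of 39; differences between lists were not tested. At granule genes, 10 of the 48 regions had a more negative effect in KO than in WT cells and none a more positive one.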

How the data were processed

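Values were deposited as tag counts by HOMER (annotatePeaks, raw, windows of 1000 bp around merged ATAC-seq peaks). Per the labels and the study's methods, the authors mapped reads to hg38 with Bowtie2. The submitters' processing notes also name DESeq2, and versions are not given in the sources used here. The deposited counts are multiples of 0.5 (52.2% of values were whole), so they were treated as estimated counts and rounded up to whole numbers at 0.5. Of the windows 31.8% overlapped another and share reads. Input libraries were not used here. The 8 libraries held between 9046141 and 12935453.5 tags in the regions, and all 8 value columns were used.

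The 123276 of 151654 regions that reached 10 counts in 2 or more libraries entered 1 edgeR 4.0.16 quasi-likelihood fit (TMM, 1 mean per group, R 4.3.3, biological coefficient of variation 0.0737), from which the IFNα effect in KO cells, that in WT cells and their difference were taken. Calls needed an adjusted p (Benjamini-Hochberg over all tested regions) below 0.05 and a change above 2-fold; the study's methods used DESeq2 with these thresholds, which is an alternative here (DESeq2 1.42.0). The fit was tested on simulated data. Function lists took tested regions whose nearest TSS belonged to a listed gene within 10000 bp. The members and lists were chosen with earlier results of these data known.

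Named regions were USP18, the 10 largest rises and falls by log2 change and by CPM (not overlapping, mean of at least 5 CPM in the higher group, 1 per gene), the 10 genes with most raised or lowered regions, the 6 longest runs each way, up to 2 rises and 2 falls per list (at least 30 counts), and the 5 largest differences each way. Other genes and regions with values, such as ISG15, IL6, TNF, GAPDH, CSF1R, CXCR4, the further granule gene regions and uncalled promoters, were chosen after their values were seen. Bases were read from hg38, or from RefSeq on GRCh38.p14 for promoters, and searched for exact matches on both strands. Alternatives were scaling, low-count filters, GC and loess offsets, overlapping windows, promoter classes, thresholds, DESeq2, a replicate block and leaving out each library. Intervals on count ratios cover counting error only. Some items are not reported here.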

Additional observations from a re-analysis of the deposited data

Results flagged for a closer look

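The test of the difference between the KO and the WT effect of IFNα flagged the following results; both effects come from separate libraries, 2 per group. Differences are signed, so that a negative one marks a change more negative in KO than in WT cells. More than 2-fold larger signed effects in KO cells were found at 5743 regions and smaller ones at 3093. The largest positive differences were 6.50 for the region nearest to LINC02513, 5.67 for CXorf56, 5.48 for LOC105370829, 5.16 for CENPP and 5.12 for ZHX2. In each of these regions the untreated KO libraries were near 0 and both treated KO libraries were high. In an intron of CXorf56, 0.436 and 0.192 CPM became 10.3 and 10.4 CPM in KO cells, while WT cells held means of 1.38 and 0.853 CPM. At CENPP, a centromere protein gene, 0.436 and 1.25 CPM became 22.4 and 22.8 CPM, and at ZHX2, a transcriptional repressor gene, 0.698 and 0.577 CPM became 13.3 and 12.1 CPM.

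The most negative differences were −3.02 for SPIN4, −2.90 for ARSD-AS1, −2.85 for AJAP1, −2.74 for SLC7A2 and −2.60 for NAA11. SPIN4 (1.40 and 2.12 to 0.0888 and 0.376 CPM, or 38 to 5 counts) and NAA11 (0.785 and 1.15 to 0.178 and 0.188 CPM, or 21 to 4 counts) rest on few counts, and the NAA11 call was lost without untreated KO replicate 2 (−2.31, adjusted p = 0.060). In WT cells SPIN4 held means of 7.56 and 8.36 CPM and NAA11 5.52 and 6.65 CPM, above both KO groups. ARSD-AS1 went from 3.40 and 5.39 to 0.621 and 0.563 CPM in KO cells. SLC7A2, which encodes a cationic amino acid transporter, went from 6.81 and 6.35 to 1.95 and 0.845 CPM.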

How the results depend on the processing

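None of the 127 named regions or 10 named differences changed direction in the alternatives run on them, and the other called regions were not checked. With scaling by the sum of counts the medians of 7 lists near 0 turned negative (receptor and JAK-STAT, myeloid transcription factors, monocyte surface, MYC, histone acetylation, TGF-β and ribosomal protein genes). Counts in KO cells moved by over 1.5 times with the fold threshold or the set of regions: without a fold threshold 16053 regions were raised and 13794 lowered, at 4-fold 3153 and 214, and with proximal regions fitted alone 1240 and 728. For the signed difference between the lines, larger effects numbered 816 with proximal regions alone and 2251 at 4-fold, and smaller effects 452 and 220. Smaller effects numbered 4779 with scaling by the sum of counts and 6431 without a fold threshold. DESeq2 called 6682 raised and 4167 lowered regions, loess offsets 8800 and 5095, and tag-directory totals 8049 and 6521. Leaving out each library gave 7612 to 8349 raised and 5102 to 5784 lowered regions over the 4 KO libraries, and 4666 to 5295 larger and 2729 to 3406 smaller effects over all 8. The IRF core lay in 47.7% of raised and 11.1% of lowered distal regions over 1000 bp and in 29.1% of raised regions with proximal ones included.

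Same-numbered deviations of the untreated and treated KO libraries correlated at 0.0463 across regions. With 2 libraries in a group, the deviation of replicate 2 only mirrors that of replicate 1. Many regions also hold few counts, so this value cannot show whether replicate numbers pair the libraries. With the replicate block, 8791 regions were raised, 5293 lowered, 5765 larger and 3117 smaller. Of 1141 values for 127 named regions, 1123 kept their side of the threshold and 18, in 12 regions, did not; these are given beside the genes, and the cause was not tested. Depth limits falls at weak regions and fold sizes where untreated libraries hold a few counts.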
